A study of Mus musculus with 16 samples.

Results

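The respiratory chain genes of the nuclear genome were followed complex by complex in mouse lung. Genes were taken by symbol: those beginning with Ndufa, Ndufb, Ndufc, Ndufs, Ndufv, Uqcr, Cox4 to Cox8 or Atp5, together with Sdha, Sdhb, Sdhc and Sdhd, without pseudogenes. This gave 89 of the 19938 genes measured, and where several probe sets carried 1 gene the one with the highest mean was kept. The rule used no difference between groups. Of the 89, 34 encode subunits of complex I (6 catalytic core and 28 accessory), 4 complex II, 8 complex III, 17 complex IV (10 widespread forms and 7 tissue-restricted forms) and 17 complex V (5 of the F1 head and 12 of the membrane part and stalk). A further 7 are complex I assembly factors (the Ndufaf genes), and Cox7a2l and Ndufa4l2 are relatives that were kept apart from the subunits. Ndufb1, Ndufb4, Ndufaf8 and Cox7c had no probe set with that single symbol and are not analysed here.

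RNA of lung was measured on 16 Affymetrix arrays, 4 per group, from 50 ng of RNA each. The groups were wild type mice of the strain B6129SF2/J (WT) and mice lacking Vldlr (KO), which encodes a receptor for triglyceride-rich lipoproteins, each given saline or house dust mite (HDM), an inhaled allergen that brings about allergic airway inflammation in mice. All mice received 10 µl into the nose on 5 days a week for 6 weeks, with 25 µg of HDM per dose in the HDM groups. The labels give no number of animals behind an RNA sample, so the p-values rest on the spread between samples only. They do not say how old the mice were, on which background the knockout was kept or which part of Vldlr it lacks.

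The respiratory chain lies in the inner mitochondrial membrane. Complexes I and II pass electrons from NADH and succinate to ubiquinone, complex III passes them on to cytochrome c, and complex IV passes them to oxygen. The proton gradient that complexes I, III and IV build drives complex V, the ATP synthase. Most subunits are made from nuclear genes and are joined with a few made from mitochondrial DNA.

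Values are on the log2 scale. Array medians lay between 8.78 and 8.85 and the correlations between arrays between 0.9784 and 0.9972. Vldlr was lower on all 8 knockout arrays than on all 8 wild type arrays, by 0.76 with saline and 0.93 with HDM. The mean level of 10 markers of alveolar type 2 cells, a cell type that defines lung, was 12.71 to 13.02 over the 16 arrays. Levels of different probe sets cannot be set against each other on an array, so only differences between arrays are compared.

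In wild type lung, HDM came with lower levels of a share of the chain. With HDM, 25 of the 89 genes (28.1%) were lower than with saline at a limma adjusted p under 0.05, against 9.72% of all genes, and 3 were higher, against 7.86% of all genes. The 25 were 11 subunits of complex I, 2 of complex II, 1 of complex III, 5 of complex IV, 5 of complex V and Ndufa4l2. In the knockout 3 were lower with HDM, against 3.88% of all genes, and 5 were higher, against 4.96%. The median change over the 89 genes was -0.10 in wild type, where that over all genes was -0.05, and 0.00 in the knockout, where that over all genes was -0.03. No change reached 2-fold: the 25 falls ran from -0.21 to -0.76 with a median of -0.30, and the largest left 0.59 of the saline level.

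With HDM in both genotypes, 21 of the 89 genes (23.6%) were higher in the knockout than in wild type, against 5.84% of all genes, and 2 were lower, against 5.83%. The 21 were 4 subunits of complex I, 2 of complex II, 2 of complex III, 7 of complex IV and 6 of complex V, and their differences ran from 0.20 to 0.51. This comparison uses the same 4 WT HDM arrays as that of HDM with saline in wild type, so the 2 sets of calls are not independent. With saline no gene of the 89 passed between genotypes by limma, against 0.0903% of all genes higher and 0.14% lower in the knockout. At an unadjusted p under 0.05, 2 were higher there (3.61% of all genes were) and 7 lower (4.2% of all genes were).

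**Figure D1:**
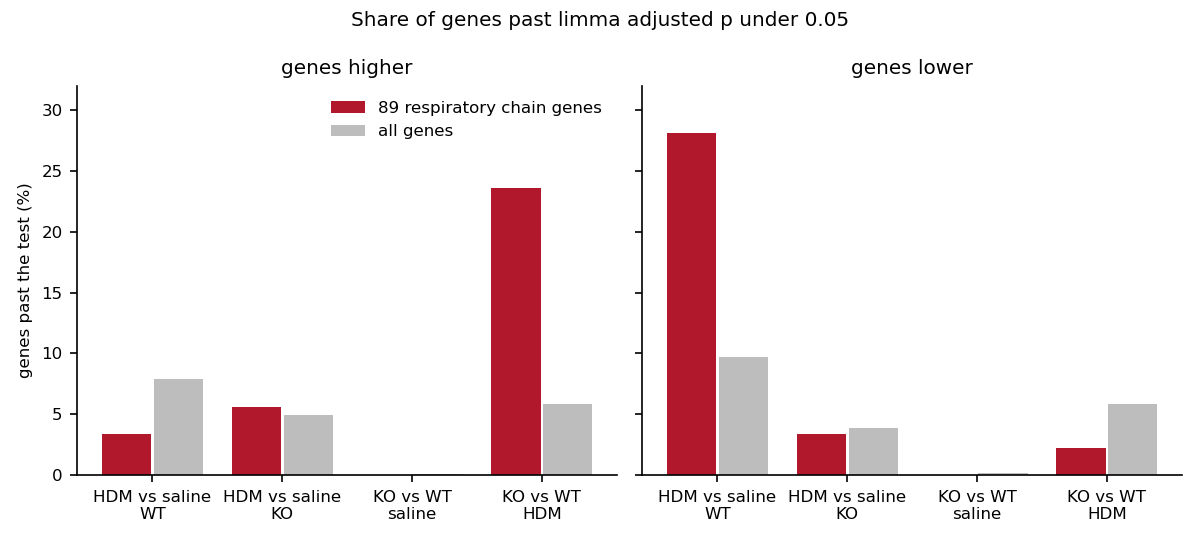
Share of genes, in percent, that passed limma's adjusted p threshold of 0.05 as higher or lower in each of 4 comparisons, for the 89 respiratory chain genes (red) and all genes (grey). The red bars stand above the grey ones for genes lower with HDM in wild type (28.1% against 9.72%) and for genes higher in the knockout under HDM (23.6% against 5.84%), which share the WT HDM arrays.

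Counts of genes whose arrays did not overlap between groups are given next to those that passed. With HDM in wild type 27 of the 89 were lower without overlap (14.4% of all genes were) and 3 higher (9.13%). In the knockout 5 were lower (7.33% of all genes) and 6 higher (6.71%). Between genotypes under HDM 20 were higher in the knockout (5.74% of all genes) and 3 lower (5.06%), and with saline 2 were higher (3.16%) and 7 lower (3.38%).

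Whether the HDM change differed between genotypes was tested as an interaction, with the wild type change subtracted from the knockout change. By limma no gene of the 89 passed, against 0.356% of all genes higher and 0.446% lower. At an unadjusted p under 0.05, 25 of the 89 (28.1%) had the higher change in the knockout, against 7.93% of all genes, and 1 the lower, against 7.71%. The smallest adjusted p of the 89 in the higher direction was 0.0567, for Atp5mpl (limma). Without KO HDM 4, 6 genes passed as higher, when 2.57% of all genes did, and 1 as lower, when 2.54% did. Without WT HDM 1, 5 passed as higher, against 0.602% of all genes, and without WT HDM 3, 1 did, against 0.562%.

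The count of falls in wild type depended on single arrays. It was 13 without WT HDM 4, 14 without WT saline 4, 15 without WT saline 3 and 16 without WT HDM 3, when 4.8%, 7.49%, 5.25% and 8.86% of all genes fell. It was 11 (12.4%) with WT saline 2 and 3 both left out, when 2.06% of all genes fell. Of the 25 falls, 12 passed whichever single array was left out: Atp5g1, Atp5g3, Atp5j, Cox7a1, Cox7a2, Cox7b, Ndufa11, Ndufb11, Ndufb8, Ndufc2, Sdhc and Uqcrh. The count of genes higher in the knockout under HDM was 11 without KO HDM 2, 11 without WT HDM 4, 12 without KO HDM 3 and 13 without KO HDM 1, when 3.51%, 3.58%, 2.63% and 2.48% of all genes were. It was 5 (5.62%, against 0.963% of all genes) when only these 2 groups were fitted. In the knockout the 5 genes higher with HDM were 3 without KO saline 1, when 3.35% of all genes were higher, and the 3 lower ones were 1 without KO HDM 3, when 2.13% were lower.

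The mean over the chain describes the same values on the same arrays as the calls above, those of the interaction included, and is no further support. In this mean the WT HDM arrays stood apart. The mean deviation of the 89 genes, each from its own mean over 16 arrays, was -0.045, -0.045, -0.127 and -0.106 on the WT HDM arrays. It lay between -0.025 and 0.103 on the other 12 arrays, so WT HDM did not overlap with the rest. For 11 of the 89 genes (12.4%) all 4 WT HDM arrays lay below the other 12, against 1.68% of all genes: Atp5g1, Atp5g3, Atp5j2, Cox5b, Cox7b, Cox8a, Ndufb11, Ndufb8, Sdha, Sdhc and Uqcrh. For Atp5d and Ndufs7 they lay above, against 1.56% of all genes. In RNA of whole lung, fewer cells of a type and less transcript per cell cannot be told apart.

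**Figure D2:**
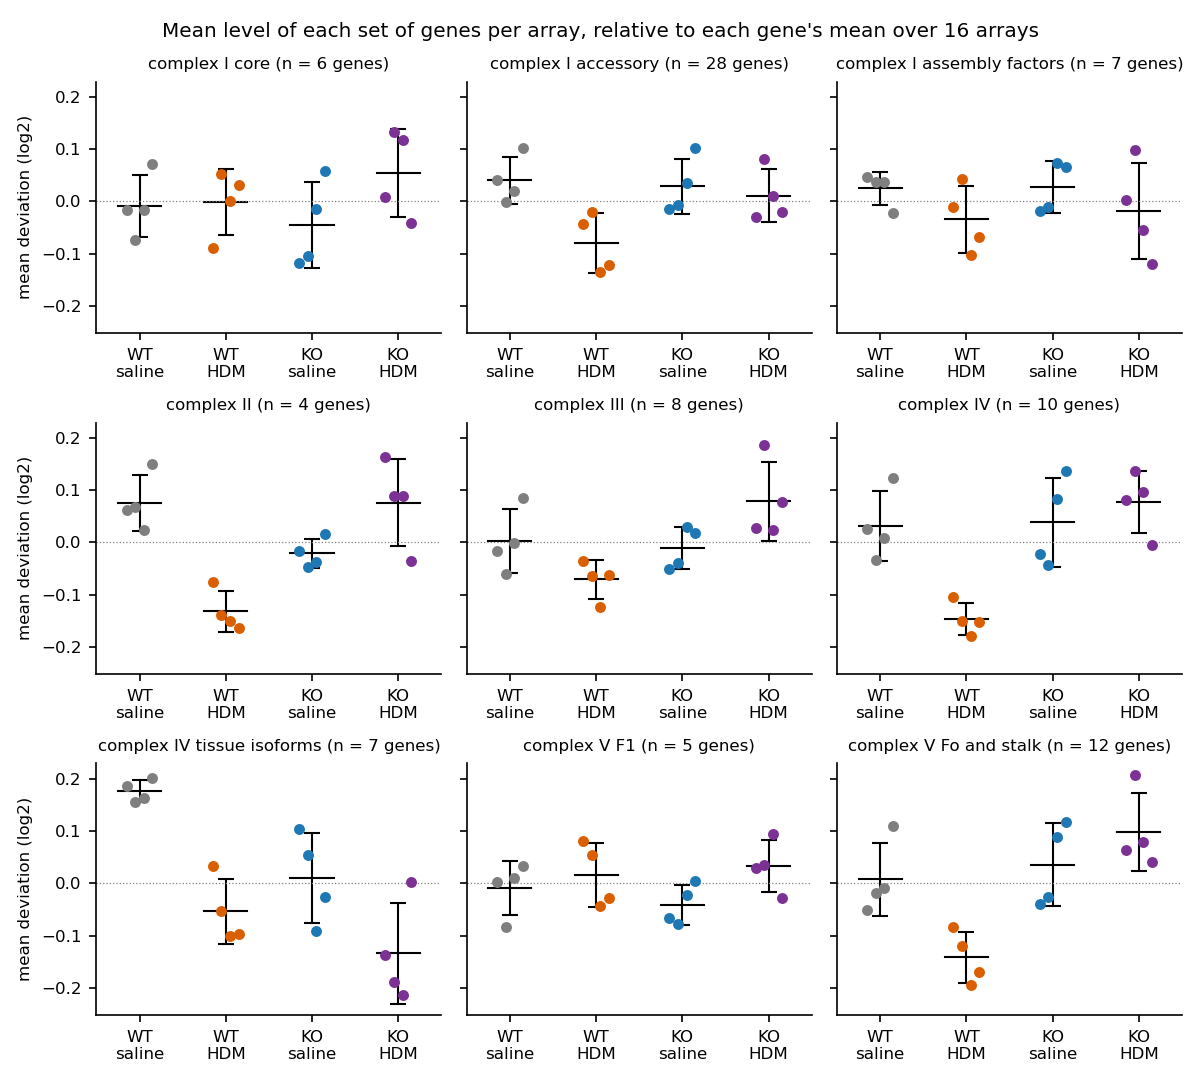
Mean deviation (log2) of the genes of each set on each array, relative to each gene's mean over the 16 arrays. Points are arrays, 4 per group, and the line and bar are the mean ± SD. In complex II and complex IV the 4 WT HDM arrays lie below the other 12, while those of complex I, complex III and the F1 head overlap with other groups.

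The means of single sets are given without a test of the difference between sets. In the 10 widespread forms of complex IV the WT HDM arrays lay at -0.18 to -0.10 and the other 12 at -0.04 to 0.14. In complex II they lay at -0.16 to -0.07 against -0.05 to 0.16, and in the membrane part and stalk of complex V at -0.19 to -0.08 against -0.05 to 0.21. WT HDM overlapped with other groups in the tissue-restricted forms of complex IV (-0.10 to 0.03 against -0.21 to 0.20), the accessory genes of complex I (-0.14 to -0.02 against -0.03 to 0.10), complex III (-0.12 to -0.04 against -0.06 to 0.19), the complex I core (-0.09 to 0.05 against -0.12 to 0.13) and the F1 head (-0.04 to 0.08 against -0.08 to 0.10). The 7 assembly factors of complex I overlapped too (-0.10 to 0.04 against -0.12 to 0.10), and none of them passed in any comparison.

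The promoters of 6 genes are shown as examples. Of these, 5 carry motifs of factors known to drive respiratory chain genes, and that of the muscle form Cox7a1 carries none of them. All but Sdha passed as lower with HDM in wild type, so the examples cannot show whether motifs and falls go together. They are the 250 bases before the start, from RefSeq, build GRCm38.p6, 5′ to 3′ on the strand of the gene. Capitals mark a match, on either strand, to NRF1 (GCGC, any base, TGCGC), ETS factors such as GABPA (CCGGAAG), YY1 (AAGATGGCG) or the estrogen-related receptor ERRA (TCAAGGTCA).
Sdhd (chr9:50603850-50604099, minus strand): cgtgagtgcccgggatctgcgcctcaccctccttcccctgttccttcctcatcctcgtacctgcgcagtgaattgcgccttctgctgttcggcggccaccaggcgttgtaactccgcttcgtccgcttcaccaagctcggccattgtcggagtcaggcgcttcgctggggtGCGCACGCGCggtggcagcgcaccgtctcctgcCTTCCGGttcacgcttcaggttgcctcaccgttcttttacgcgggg
Sdha (chr13:74350241-74350490, minus strand): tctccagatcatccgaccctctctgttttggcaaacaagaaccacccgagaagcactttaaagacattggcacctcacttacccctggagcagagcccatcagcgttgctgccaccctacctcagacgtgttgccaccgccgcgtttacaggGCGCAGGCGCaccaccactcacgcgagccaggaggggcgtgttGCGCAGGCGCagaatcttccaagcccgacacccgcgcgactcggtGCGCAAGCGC
Atp5g3 (chr2:73911327-73911576, minus strand): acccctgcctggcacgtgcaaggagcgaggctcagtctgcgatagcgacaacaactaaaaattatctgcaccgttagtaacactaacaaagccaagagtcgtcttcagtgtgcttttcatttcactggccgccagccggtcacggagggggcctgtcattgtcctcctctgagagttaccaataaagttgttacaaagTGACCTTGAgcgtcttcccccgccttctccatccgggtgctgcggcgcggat
Uqcrh (chr4:116075071-116075320, minus strand): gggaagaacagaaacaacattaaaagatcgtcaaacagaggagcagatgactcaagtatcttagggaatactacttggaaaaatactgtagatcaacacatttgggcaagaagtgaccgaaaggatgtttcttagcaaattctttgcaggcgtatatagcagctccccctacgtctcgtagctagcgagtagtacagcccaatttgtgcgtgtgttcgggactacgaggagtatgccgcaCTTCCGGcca
Atp5j (chr16:84834977-84835226, minus strand): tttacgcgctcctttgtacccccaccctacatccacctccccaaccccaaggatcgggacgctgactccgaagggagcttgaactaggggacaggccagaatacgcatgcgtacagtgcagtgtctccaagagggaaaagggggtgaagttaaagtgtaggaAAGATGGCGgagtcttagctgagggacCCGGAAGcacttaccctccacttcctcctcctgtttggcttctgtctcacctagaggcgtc
Cox7a1 (chr7:30183921-30184170, plus strand): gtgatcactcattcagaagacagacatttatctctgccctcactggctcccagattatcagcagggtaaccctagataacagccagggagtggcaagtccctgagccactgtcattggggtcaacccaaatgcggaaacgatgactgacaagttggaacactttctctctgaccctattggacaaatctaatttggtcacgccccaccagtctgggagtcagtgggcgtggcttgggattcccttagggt
In Sdhd the NRF1 match begins 79 bases and the ETS match 46 bases before the start. Sdha has 3 NRF1 matches, beginning 98, 55 and 10 bases before the start. Atp5g3 has an ERRA match at 52 bases, Uqcrh an ETS match at 10, and Atp5j a YY1 match at 88 and an ETS match at 61 in the one of its 2 windows that is shown. None of the marked matches overlap.

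Windows of 300 bases (250 before and 50 after the start) were found for 73 of the 89 genes, 78 windows in all. Of the 73 genes, 37 had an NRF1, ETS, YY1 or ERRA match, so many more than those printed carry one. NRF1 matches were in 24.4% of these windows against 4.6% of all 32851 windows, and ETS matches in 23.1% against 8.9%. YY1 matches were in 9.0% against 1.4%, and ERRA matches in 2.6% (those of Atp5g3 and Sdhd) against 0.4%. The general motifs SP1 (GGGCGG) and NFY (CCAAT) were in 43.6% and 42.3% of the windows, against 35.7% and 37.4%. Of the 22 genes with a window that fell with HDM in wild type, 4 had an NRF1 match, 5 an ETS match, 3 a YY1 match and 2 an ERRA match, and of the 51 others 14, 13, 4 and 0. The NRF1 match of Atp5g3 and the ERRA match of Sdhd lie outside the bases printed. A match describes letters, not binding.

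In complex I, the NADH dehydrogenase, accessory subunits made up most of the fall in wild type. Of the 28 accessory genes 10 fell and 1 rose, and of the 6 core genes 1 fell and 1 rose. Ndufb11, a subunit of the membrane arm, was at 12.55, 12.54, 12.47 and 12.46 on the WT saline arrays and 11.84, 11.94, 11.81 and 11.68 on the WT HDM arrays. It was at 12.52, 12.47, 12.54 and 12.60 in KO saline and 12.40, 12.25, 12.22 and 12.05 in KO HDM. KO HDM lay below both saline groups and above WT HDM, with no overlap. The change was -0.69 ± 0.07 (SE) in wild type (limma adjusted p = 3.98e-05) and -0.30 ± 0.07 in the knockout (adjusted p = 0.0108), and the interaction was 0.38 ± 0.10 (adjusted p = 0.0728). A second probe set of Ndufb11 gave -0.70 in wild type.

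Ndufa11, which also sits in the membrane arm, fell by 0.35 in wild type (limma adjusted p = 0.00407). It was at 10.90, 10.77, 10.69 and 10.96 in WT saline and 10.60, 10.37, 10.47 and 10.47 in WT HDM, without overlap, and at 10.66 to 10.78 in KO saline and 10.55 to 10.81 in KO HDM, with overlap. A second probe set of Ndufa11 gave -0.21 in wild type. In the knockout it gave 0.20, where the one kept gave -0.06. Ndufc2, a further membrane arm subunit, was at 12.61, 12.45, 12.34 and 12.54 in WT saline, 12.31, 12.29, 12.14 and 11.98 in WT HDM, 12.68, 12.62, 12.69 and 12.70 in KO saline and 12.38, 12.50, 12.32 and 12.25 in KO HDM. The HDM arrays lay below the saline arrays in both genotypes, by 0.31 (limma adjusted p = 0.0136) and 0.31 (limma adjusted p = 0.0157, and 0.0509 without KO HDM 3). Ndufb8 fell by 0.22 in wild type (limma adjusted p = 0.0128) and was at -0.04 in the knockout.

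The other accessory genes that fell in wild type were Ndufa3, Ndufa5, Ndufa7, Ndufb3, Ndufb9 and Ndufc1. Their changes ran from -0.28 to -0.21, and in the knockout, where none of the 6 passed, from -0.17 to -0.04. Each of the 6 calls ended without at least 1 array, that of Ndufb3 with a limma adjusted p of 0.139 without WT HDM 4. Ndufs8, a core subunit that carries iron-sulfur clusters, fell by 0.24 (limma adjusted p = 0.0445, and 0.112 without WT saline 4).

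Ndufs7 and Ndufa6 rose in wild type. Ndufs7 encodes the core subunit with the last iron-sulfur cluster before ubiquinone. It was at 13.04, 13.01, 13.13 and 13.01 in WT saline and 13.46, 13.47, 13.50 and 13.57 in WT HDM, and at 12.96, 13.00, 12.92 and 12.98 in KO saline and 13.10, 13.28, 13.29 and 13.38 in KO HDM. The HDM arrays lay above the saline arrays in both genotypes, by 0.45 ± 0.06 (SE, limma adjusted p = 0.000198) and 0.30 ± 0.06 (adjusted p = 0.004). It was the only one of the 89 to pass as higher in both. Under HDM it was lower in the knockout by 0.24 (limma adjusted p = 0.0157, and 0.0611 without KO HDM 1).

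Ndufa6, an accessory subunit, was at 9.76, 9.76, 9.94 and 10.30 in WT saline and 10.52, 10.81, 10.50 and 10.74 in WT HDM, a rise of 0.70 ± 0.14 (SE, limma adjusted p = 0.00394). In the knockout it was at 9.95, 9.99, 10.04 and 10.18 with saline and 10.03, 10.66, 10.12 and 10.62 with HDM, where the groups overlapped and the difference of 0.32 did not pass (limma adjusted p = 0.18). The core genes Ndufs1, Ndufs3, Ndufv1 and Ndufv2 lay between -0.09 and 0.00 in wild type and between 0.03 and 0.20 in the knockout, and none passed.

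Under HDM, 4 accessory genes of complex I were higher in the knockout than in wild type. Ndufb11 was higher by 0.41 (limma adjusted p = 0.00228). Ndufb6 was higher by 0.33 (adjusted p = 0.0378, and 0.136 without KO HDM 1), Ndufa1 by 0.29 (adjusted p = 0.0465, and 0.143 without WT HDM 4) and Ndufa3 by 0.26 (adjusted p = 0.0318, and 0.0917 without KO HDM 3).

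Complex II, succinate dehydrogenase, is shared with the citric acid cycle. All 4 subunits had negative changes in wild type (-0.28 to -0.13) and positive ones in the knockout (0.01 to 0.23), and the membrane anchors Sdhc and Sdhd passed as lower in wild type. Sdhc was at 11.14, 11.23, 11.40 and 11.37 in WT saline and 11.07, 11.01, 10.91 and 11.04 in WT HDM. It was at 11.42, 11.34, 11.27 and 11.28 in KO saline and 11.52, 11.44, 11.49 and 11.25 in KO HDM. The WT HDM arrays were the 4 lowest of the 16.

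The change of Sdhc was -0.28 ± 0.07 (SE, limma adjusted p = 0.015) in wild type and 0.10 ± 0.07 (adjusted p = 0.442) in the knockout. Under HDM the knockout was higher by 0.42 (adjusted p = 0.00228), and the interaction was 0.37 ± 0.10 (adjusted p = 0.0831). Sdhd, whose promoter holds the NRF1 and ETS matches printed above, fell by 0.23 in wild type (adjusted p = 0.0361, and 0.117 without WT saline 2). Sdha, the flavoprotein that binds succinate, was at -0.13 in wild type (adjusted p = 0.1) and higher by 0.20 in the knockout under HDM (adjusted p = 0.0273, and 0.0919 without KO HDM 1). Sdhb, the iron-sulfur subunit, passed in no comparison.

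Complex III hands electrons from ubiquinol to cytochrome c. Of its 8 genes only Uqcrh, the hinge protein that helps cytochrome c1 meet cytochrome c, passed in wild type. It was at 11.18, 11.22, 11.25 and 11.41 in WT saline and 10.91, 11.02, 10.79 and 10.86 in WT HDM. It was at 11.27, 11.29, 11.41 and 11.43 in KO saline and 11.32, 11.32, 11.14 and 11.15 in KO HDM. The WT HDM arrays were again the 4 lowest, with a change of -0.37 ± 0.07 (SE, limma adjusted p = 0.00263) in wild type and -0.11 ± 0.07 (adjusted p = 0.331) in the knockout. Under HDM the knockout was higher by 0.34 (adjusted p = 0.00593).

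Uqcrq, a small subunit of complex III, was at 9.40, 9.60, 9.61 and 9.69 in WT saline, 9.50, 9.40, 9.44 and 9.57 in WT HDM, 9.50, 9.61, 9.66 and 9.62 in KO saline and 9.75, 10.12, 9.80 and 9.78 in KO HDM. The KO HDM arrays were the 4 highest. It rose with HDM in the knockout by 0.26 (limma adjusted p = 0.0464, and 0.145 without KO HDM 2) and was higher by 0.38 in the knockout under HDM (adjusted p = 0.0069). The core proteins Uqcrc1 and Uqcrc2 and the Rieske iron-sulfur protein Uqcrfs1 lay between -0.03 and 0.10 in wild type, and none passed in any comparison.

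In complex IV, cytochrome c oxidase, 3 of the 10 widespread forms fell with HDM in wild type and 7 were higher in the knockout under HDM. Cox7a2, the widespread form of subunit 7a, had the largest fall of the 89. It was at 11.01, 10.70, 10.69 and 10.72 in WT saline and 10.21, 10.12, 9.97 and 9.78 in WT HDM. It was at 10.63, 10.70, 10.90 and 10.75 in KO saline and 10.72, 10.56, 10.53 and 10.04 in KO HDM. The groups did not overlap in wild type and did in the knockout.

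The change of Cox7a2 was -0.76 ± 0.12 (SE, limma adjusted p = 0.00104) in wild type and -0.28 ± 0.12 (adjusted p = 0.18) in the knockout, and the interaction of 0.48 ± 0.17 did not pass (adjusted p = 0.19). Under HDM the knockout was higher by 0.44 (adjusted p = 0.0278, and 0.107 without KO HDM 1). Cox7b, a small membrane subunit, was at 12.36, 12.46, 12.40 and 12.50 in WT saline and 12.16, 12.05, 12.10 and 12.20 in WT HDM, a fall of 0.30 without overlap (adjusted p = 0.00668). Cox5b, which binds zinc on the matrix side, fell by 0.23 (adjusted p = 0.0237, and 0.0642 without WT saline 4). Under HDM both were higher in the knockout, Cox7b by 0.26 (adjusted p = 0.0195, and 0.0616 without WT HDM 2) and Cox5b by 0.29 (adjusted p = 0.0111).

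Cox4i1 and Cox6b1 rose with HDM in the knockout. Cox4i1, the widespread form of subunit 4, was at 10.58, 10.63, 10.72 and 10.87 in WT saline and 10.85, 10.63, 10.71 and 10.62 in WT HDM. It was at 10.71, 10.53, 10.72 and 10.72 in KO saline and 10.99, 11.06, 10.97 and 11.09 in KO HDM, the 4 highest of the 16. The change was 0.36 ± 0.07 (SE, limma adjusted p = 0.00392) in the knockout and 0.00 ± 0.07 (adjusted p = 0.991) in wild type, with an interaction of 0.36 ± 0.10 (adjusted p = 0.0971).

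Cox6b1, which faces the intermembrane space, was at 12.20, 11.88, 11.94 and 11.97 in WT saline and 11.98, 11.75, 11.91 and 11.96 in WT HDM, and at 11.86, 11.69, 11.87 and 11.96 in KO saline and 12.18, 12.36, 12.19 and 12.13 in KO HDM. The KO HDM arrays lay above all others but WT saline 1. It rose by 0.37 ± 0.08 (SE, limma adjusted p = 0.00655) in the knockout and was at -0.09 in wild type, with an interaction of 0.47 ± 0.11 (adjusted p = 0.0573). Under HDM Cox4i1 was higher in the knockout by 0.33 (adjusted p = 0.00824) and Cox6b1 by 0.32 (adjusted p = 0.0171, and 0.0595 without WT HDM 2). Cox5a was higher by 0.26 (adjusted p = 0.0305, and 0.098 without KO HDM 1) and Cox8a by 0.20 (adjusted p = 0.0169, and 0.0567 without KO HDM 1). Cox6a1, Cox6c and Ndufa4 passed in no comparison.

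**Figure D3:**
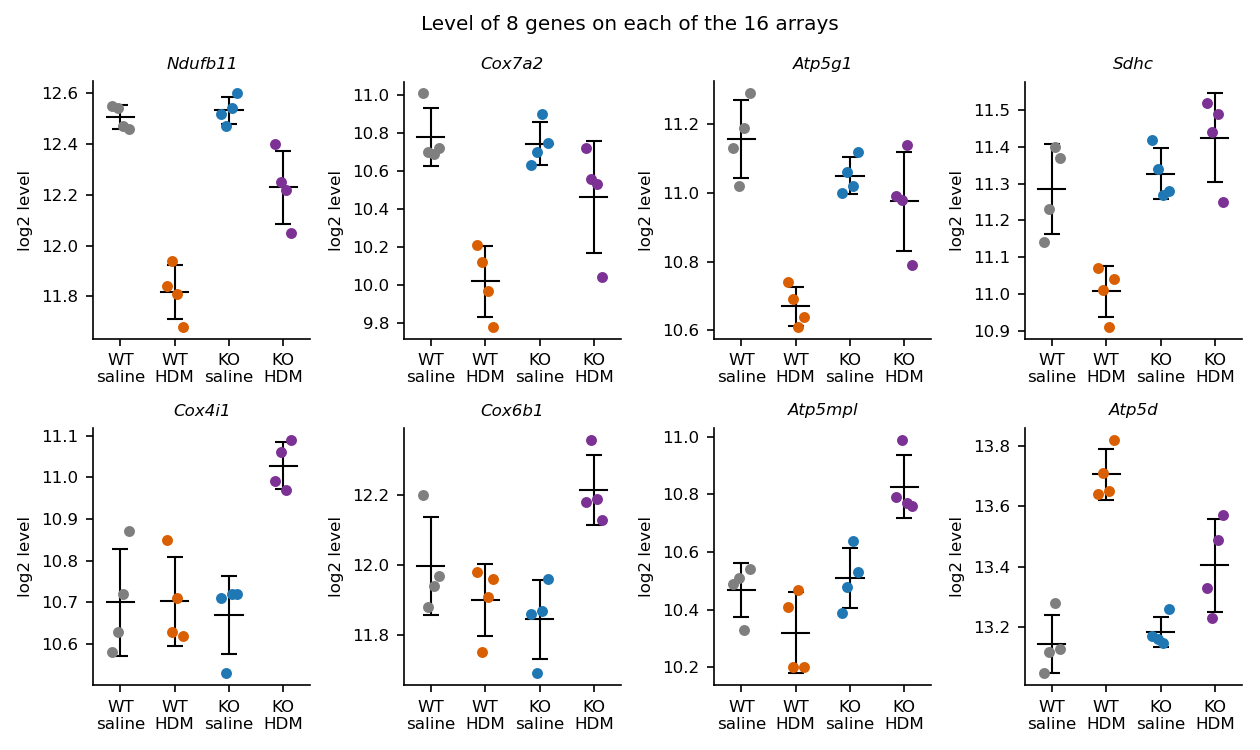
Level (log2) of 8 respiratory chain genes on each array, with the mean ± SD of the 4 arrays of a group; each panel has its own axis, which does not start at 0. Ndufb11, Atp5g1 and Sdhc have their 4 lowest arrays in WT HDM, Cox4i1 and Atp5mpl their 4 highest in KO HDM, and Atp5d its 4 highest in WT HDM.

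In complex V, the ATP synthase, none of the 5 F1 genes passed as lower in wild type and Atp5d rose, and 5 of the 12 genes of the membrane part and stalk fell; the difference between the parts was not tested. Atp5g1, Atp5g2 and Atp5g3 encode the same mature c subunit of the rotating ring. Atp5g1 was at 11.13, 11.02, 11.19 and 11.29 in WT saline and 10.74, 10.69, 10.61 and 10.64 in WT HDM. It was at 11.00, 11.06, 11.02 and 11.12 in KO saline and 10.99, 10.98, 11.14 and 10.79 in KO HDM. The WT HDM arrays were the 4 lowest of the 16.

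The change of Atp5g1 was -0.49 ± 0.07 (SE, limma adjusted p = 0.000467) in wild type and -0.07 ± 0.07 (adjusted p = 0.585) in the knockout, with an interaction of 0.42 ± 0.10 (adjusted p = 0.0593). Atp5g3, whose promoter holds the ERRA match, fell by 0.26 (adjusted p = 0.00343) and was at -0.11 in the knockout (adjusted p = 0.213). Under HDM both were higher in the knockout, by 0.31 (adjusted p = 0.0121) and 0.23 (adjusted p = 0.0103). Atp5g2 was at -0.09 in wild type and passed in no comparison.

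Atp5j, the coupling factor F6 of the stalk, was at 12.68, 12.67, 12.64 and 12.62 in WT saline and 12.42, 12.41, 12.31 and 12.23 in WT HDM, a fall of 0.31 without overlap (limma adjusted p = 0.00278). In the knockout it was at -0.15 (adjusted p = 0.12). Atp5md and Atp5j2, small subunits of the membrane part, fell in wild type by 0.36 (adjusted p = 0.0234, and 0.064 without WT HDM 4) and 0.31 (adjusted p = 0.0257, and 0.0714 without WT saline 4). Both were higher in the knockout under HDM, by 0.36 (adjusted p = 0.0302, and 0.098 without KO HDM 2) and 0.32 (adjusted p = 0.0253, and 0.0759 without KO HDM 2). The other 2 probe sets of Atp5md gave -0.43 and -0.39 in wild type.

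Atp5mpl, a small proteolipid of the membrane part, was at 10.49, 10.51, 10.33 and 10.54 in WT saline and 10.41, 10.20, 10.47 and 10.20 in WT HDM. It was at 10.39, 10.48, 10.64 and 10.53 in KO saline and 10.79, 10.99, 10.77 and 10.76 in KO HDM, the 4 highest of the 16. It rose by 0.32 ± 0.08 (SE) with HDM in the knockout (limma adjusted p = 0.0159, and 0.0596 without KO HDM 2). Under HDM it was higher by 0.51 ± 0.08 in the knockout (adjusted p = 0.00134), the largest difference among the 23 that passed there, and the interaction was 0.46 ± 0.11 (adjusted p = 0.0567). Atp5o, the OSCP subunit that joins stalk and head, was higher by 0.21 in the knockout under HDM (adjusted p = 0.0446, and 0.131 without KO HDM 2).

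In the F1 head, Atp5d, the delta subunit of its central stalk, was at 13.05, 13.12, 13.28 and 13.13 in WT saline and 13.64, 13.71, 13.65 and 13.82 in WT HDM, and at 13.17, 13.16, 13.15 and 13.26 in KO saline and 13.33, 13.23, 13.49 and 13.57 in KO HDM. The WT HDM arrays were the 4 highest. It rose by 0.56 ± 0.07 (SE, limma adjusted p = 0.000202) in wild type, and the 0.22 ± 0.07 in the knockout did not pass (adjusted p = 0.0693). Under HDM it was lower by 0.30 in the knockout (adjusted p = 0.0164, and 0.0603 without KO HDM 1), and the interaction of -0.34 did not pass (adjusted p = 0.122). The catalytic beta subunit Atp5b was at -0.01 in wild type and 0.02 in the knockout and the alpha subunit Atp5a1 at -0.18 and 0.01, and neither passed. Atp5a1 was at 12.08 to 12.26 in WT saline and 11.88 to 12.08 in WT HDM (limma adjusted p = 0.0793), with the lowest saline array just above the highest HDM array. Atp5e, the epsilon subunit of the central stalk, was at -0.29 in wild type (adjusted p = 0.064) and 0.05 in the knockout, a wild type difference as large as several that passed. Atp5l, of the membrane part, was at 9.61, 10.37, 9.60 and 10.33 in KO HDM and 9.40 to 9.65 in KO saline, and the difference of 0.47 did not pass (adjusted p = 0.0586).

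**Figure D4:**
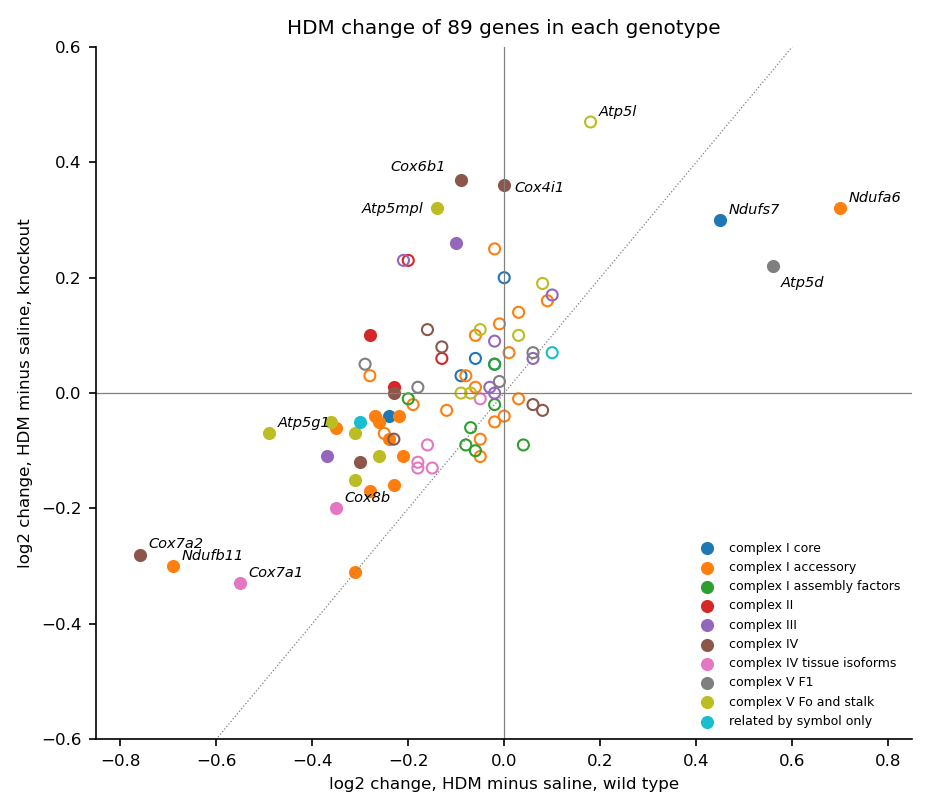
Log2 change with HDM in wild type (x axis) and in the knockout (y axis) for each of the 89 genes, coloured by complex; filled points passed limma's adjusted p of 0.05 in at least 1 genotype, and the dotted line marks equal changes. Most points lie left of 0 (69 of the 89 genes, where 12362 of all 19938 genes had a negative change). For 29 genes the change is negative in wild type and positive in the knockout, which was not counted over all genes.

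The tissue-restricted forms of complex IV, several of which replace widespread forms in heart and skeletal muscle, had another pattern. All 7 changes were negative with HDM in both genotypes, and 2 passed in wild type and 1 in the knockout. Of all 19938 genes, 12362 had a negative change in wild type and 11850 in the knockout. Cox7b2, at a dim mean level of 6.44, was at -0.05 and -0.01. Cox7a1, the heart and muscle form of subunit 7a, was at 9.31, 9.01, 9.16 and 9.45 in WT saline and 8.83, 8.85, 8.62 and 8.44 in WT HDM. It was at 8.85, 8.81, 8.65 and 8.91 in KO saline and 8.39, 8.53, 8.44 and 8.53 in KO HDM. It was lower with HDM in both genotypes, without overlap, by 0.55 (limma adjusted p = 0.00213) and 0.33 (adjusted p = 0.0396, and 0.106 without KO HDM 1). With saline it was also lower in the knockout without overlap, by 0.42, which did not pass (adjusted p = 0.0951) but did without WT saline 2.

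Cox8b, the muscle form of subunit 8, was at 9.01, 8.95, 9.05 and 9.38 in WT saline, 8.78, 8.97, 8.53 and 8.73 in WT HDM, 8.78, 8.77, 8.61 and 8.74 in KO saline and 8.52, 8.59, 8.31 and 8.71 in KO HDM. It fell by 0.35 in wild type (limma adjusted p = 0.0306, and 0.0864 without WT saline 4), with overlap between the groups. Cox6a2, the muscle form of subunit 6a, was at -0.18 in wild type and -0.13 in the knockout with HDM, and passed in no comparison. Cox4i2, the form of subunit 4 known from lung, was at 10.86 to 10.91 in WT saline, 10.70 to 10.75 in WT HDM, 10.66 to 10.79 in KO saline and 10.43 to 10.91 in KO HDM, and passed in no comparison.

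Markers of cardiac muscle, which lines the pulmonary veins of mice, were also lower with HDM in sign. All 12 listed markers, Myh6, Actc1, Tnnt2 and Myl7 among them, had negative differences with HDM in both genotypes and in the knockout with saline and with HDM. Of the 12, 8 passed as lower in the knockout under HDM and 1 as lower with HDM in wild type. Of the 7 tissue-restricted forms, 4 were negative and 3 positive in the knockout under HDM and none passed. The negative ones were the muscle forms Cox7a1 (-0.21), Cox8b (-0.22) and Cox6a2 (-0.18), and Cox4i2 (-0.11). The positive ones were Cox6b2 (0.06), Cox7b2 (0.05) and Cox8c (0.05). In the mean of all 7 forms the order of the groups differed too. The cardiac mean was higher in WT HDM than in KO saline (mean deviations 0.10 and -0.08). That of the 7 forms was lower in WT HDM (-0.05 and 0.01), both with overlap. Of the muscle forms, Cox8b had means of 8.75 in WT HDM and 8.73 in KO saline, and Cox6a2 of 10.04 and 9.99. Cox7a1 had means of 8.69 and 8.81. For each of these genes the arrays of both groups overlapped, so no order is read from the means. The mean of the cardiac markers was 10.02 to 10.35 in WT saline, 9.79 to 10.18 in WT HDM, 9.61 to 9.91 in KO saline and 9.30 to 9.80 in KO HDM. The 8 skeletal muscle markers had a mean of 8.49 to 8.54 in WT saline, 8.30 to 8.46 in WT HDM, 8.36 to 8.52 in KO saline and 8.30 to 8.40 in KO HDM. The part of either in the levels of Cox7a1, Cox8b and Cox6a2 was not tested. The widespread forms of complex IV had another order: their mean deviation was -0.01 to 0.14 in KO HDM, where the cardiac markers were lowest in the mean, and -0.18 to -0.10 in WT HDM.

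**Figure D5:**
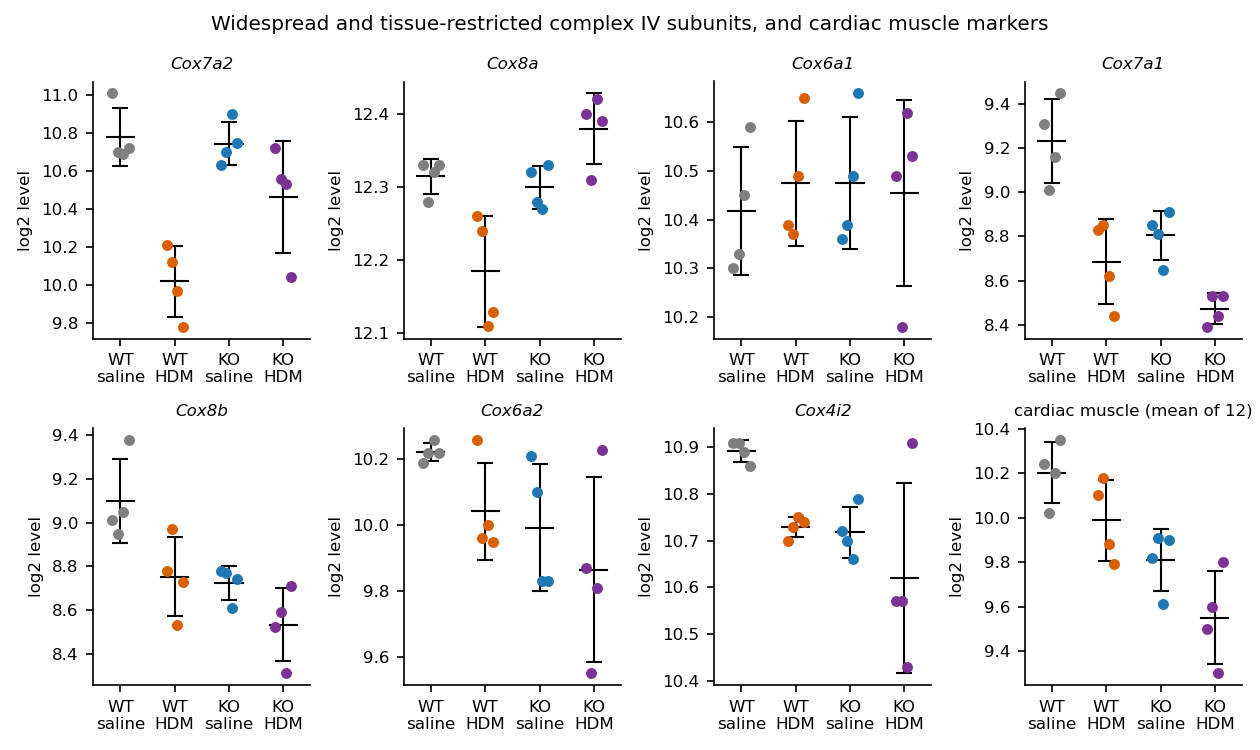
Level (log2) on each array of 3 widespread (Cox7a2, Cox8a, Cox6a1) and 4 tissue-restricted (Cox7a1, Cox8b, Cox6a2, Cox4i2) complex IV subunits and the mean of 12 cardiac muscle markers, with the mean ± SD of each group; axes do not start at 0. Cox7a1, Cox8b and the cardiac markers have their highest mean in WT saline and their lowest in KO HDM, whereas Cox7a2 and Cox8a have their lowest mean in WT HDM.

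Of the 2 relatives, Ndufa4l2, a gene known to be raised by low oxygen, fell in wild type by 0.30 (limma adjusted p = 0.0174, and 0.0554 without WT HDM 4). Cox7a2l, which helps to join complexes III and IV, was at 0.10, while its other probe set was at -0.17. Over the 89 genes the array held 25 further probe sets, of which 21 had the same sign of change in wild type as the one kept.

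Genes around the chain were described from other lists. Cyc1, the cytochrome c1 of complex III, which the symbol rule does not take in, was at 11.00, 10.86, 10.95 and 11.00 in WT saline and 10.63, 10.45, 10.45 and 10.21 in WT HDM, a fall of 0.52 without overlap (limma adjusted p = 0.00154). Under HDM it was higher in the knockout by 0.38 (adjusted p = 0.0133, and 0.0537 without KO HDM 1). Cycs, cytochrome c itself, was at 0.22 in wild type (adjusted p = 0.0549). Of the 13 subunits made from mitochondrial DNA, ND3 and COX2 were measured and neither passed (0.30 and 0.09 in wild type, -0.15 and -0.13 in the knockout).

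Of 17 genes of mitochondrial import and membrane transport, 6 fell in wild type and none rose. They included the ADP/ATP carrier Slc25a5 (-0.38, limma adjusted p = 0.00279), the outer membrane channel Vdac3 (-0.37, adjusted p = 0.00856), the import receptor Tomm22 (-0.36, adjusted p = 0.00589) and the prohibitin Phb2 (-0.29, adjusted p = 0.0108). In the knockout 2 fell and 1 rose. Under HDM 4 of the 17 were higher in the knockout and none lower, against 5.84% and 5.83% of all genes. In wild type 9.72% of all genes fell with HDM. Of 27 assembly factors of complexes II to V, 2 rose and 2 fell in wild type. Cox20, which helps to mature a complex IV subunit, rose by 0.68 (adjusted p = 0.000161) and Atpaf2, which assembles F1, by 0.32 (adjusted p = 0.00309). Cox19 fell by 0.32 (adjusted p = 0.00997) and Atpif1, the inhibitor of the ATP synthase, by 0.25 (adjusted p = 0.0197, and 0.0692 without WT saline 1).

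Of 13 regulators of mitochondrial genes, none fell in wild type and 3 rose. They were the coactivators Ppargc1a (0.48, limma adjusted p = 0.0041) and Ppargc1b (0.24, adjusted p = 0.0132) and the factor Yy1 (0.18, adjusted p = 0.0486, and 0.136 without WT saline 2). Ppargc1a was at 9.30 to 9.42 in WT saline, 9.55 to 10.03 in WT HDM, 8.99 to 9.30 in KO saline and 9.34 to 9.63 in KO HDM, and rose in the knockout too, by 0.37 (adjusted p = 0.0229, and 0.0794 without KO saline 1). Nrf1, Gabpa and Esrra, the genes of factors whose motifs were searched, were at -0.11, 0.02 and -0.09 in wild type and did not pass.

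Of 15 genes of the citric acid cycle and its entry, Pdha1 alone passed in wild type (-0.25, limma adjusted p = 0.0432, and 0.13 without WT HDM 4). Of 13 glycolysis genes 4 fell, with Pgk1 at -0.48 (adjusted p = 0.0165, and 0.0547 without WT HDM 4), Ldhb at -0.42 (adjusted p = 0.00517), Aldoa at -0.35 (adjusted p = 0.00501) and Hk1 at -0.22 (adjusted p = 0.0142). Under HDM 3 of the 13 glycolysis genes were higher in the knockout and none lower. Falls in wild type and higher levels in the knockout under HDM were thus not particular to the respiratory chain. None of 12 fatty acid oxidation genes passed in wild type by limma. Bnip3, a mitophagy receptor, rose by 0.57 in wild type (adjusted p = 0.00716) and was lower by 0.65 in the knockout under HDM (adjusted p = 0.00509).

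Other gene lists also moved with the groups. The mean of 13 clock genes was 10.29 to 10.64 in WT HDM and 9.98 to 10.26 on the other 12 arrays. Of these, 7 rose and 1 fell in wild type, and Dbp, an output gene of the clock, rose by 1.37 (limma adjusted p = 3.54e-05). Of 20 cytosolic ribosomal protein genes 3 fell in wild type and 3 were higher in the knockout under HDM. The mean of 11 ciliated cell markers was 9.33 to 9.76 in KO HDM and 9.81 to 10.28 on the other 12 arrays. The mean of 7 eosinophil markers was 8.40 to 8.78 with saline, higher on all 4 WT HDM arrays (up to 9.43) and 9.41 to 10.12 in KO HDM. All 6 B cell markers were lower with HDM in wild type in sign, 1 of them passing (median -0.35), and all 6 were higher in the knockout under HDM in sign, none passing (median 0.40); their mean level was 10.45 to 10.74 in WT saline, 9.53 to 10.56 in WT HDM, 10.36 to 10.92 in KO saline and 10.29 to 11.00 in KO HDM. Of 8 alveolar type 1 cell markers, 3 fell in wild type and 5 in the knockout, with a mean level of 12.15 to 12.30 in WT saline, 11.89 to 12.18 in WT HDM, 12.09 to 12.21 in KO saline and 11.67 to 12.09 in KO HDM. Of 10 alveolar type 2 cell markers, 3 rose and 1 fell in wild type, and 4 were lower in the knockout under HDM. Their mean was 12.81 to 12.85 in WT saline, 12.91 to 13.02 in WT HDM, 12.88 to 12.94 in KO saline and 12.71 to 12.91 in KO HDM. Of 8 club cell markers, 2 rose in wild type and 5 fell in the knockout, and 7 were lower in the knockout under HDM. The part of each of these in the respiratory chain values was not tested.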

How the data were processed

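The log2 values were deposited by the authors for 16 arrays and, per the submitters' processing notes, made with Affymetrix Expression Console and RMA, with no version stated there. RMA subtracts background, makes the arrays' distributions alike and sums each probe set's probes, so a shift shared by most genes would not show. Of 35556 probe sets, 21789 had 1 gene symbol, 1621 several and 12146 none in the platform annotation; the first kind covered 19938 genes, each by its probe set with the highest mean. Probe sets can also take up transcripts of near-identical pseudogene copies, which were not separated. limma 3.58.1 (R 4.3.3) was fitted to all genes with 4 group means and 12 residual degrees of freedom, without a filter on dim genes, with Benjamini-Hochberg adjustment over all genes and a threshold of 0.05. The fit was tested on simulated data.

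Genes to be named were the 12 largest rises and 12 largest falls that passed in a comparison, filled to 5 by the smallest p, and others that passed were named by complex after their values were seen. The members and the lists were chosen with earlier results of these data known. Atp5md and Atp5mpl were placed in complex V after the annotation was read. Same-numbered samples of different groups did not deviate together (correlations from -0.28 to 0.33, median 0.04, over 24 pairs), so samples were not paired. Promoter matches came from a search of RefSeq windows. Alternatives were quantile normalization, a shift to equal medians, filters on dim genes, the mean of probe sets, a variance trend, array weights, a replicate block, only the 2 groups compared, and leaving out arrays. WT saline 2 and 3 were left out together because an earlier look at the data set them apart.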

Additional observations from a re-analysis of the deposited data

Results flagged for a closer look

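In 9 of 164 groups of 4 arrays examined, the most distant array stood far from the other 3 by Dixon's criterion, which chance meets in about 1 in 20 groups. KO HDM 2 was high for Atp5mpl (10.99, others 10.76 to 10.79), Ndufa4 (9.74, others 9.29 to 9.35) and Uqcrq (10.12, others 9.75 to 9.80). WT saline 1 was high for Cox7a2 (11.01, others 10.69 to 10.72) and WT saline 2 low for Cox8a (12.28, others 12.32 to 12.33). KO saline 4 was high for Atp5d (13.26, others 13.15 to 13.17) and KO saline 2 low for Cox4i1 (10.53, others 10.71 to 10.72). WT HDM 1 was high for Cox6a2 (10.26, others 9.95 to 10.00). For the complex I assembly factors, WT saline 4 had a mean deviation of -0.022 where the others had 0.037 to 0.047.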

How the results depend on the processing

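No named gene that passed changed direction under an alternative. The 25 falls with HDM in wild type were 11 with WT saline 2 and 3 left out, when the calls of Cox7b and Ndufa6 ended too. When only the 2 HDM groups were fitted, 5 genes were higher in the knockout in place of 21, those of Atp5g1 and Uqcrq not among them, and 0 lower in place of 2. The interaction, with 0 calls, gave 2 higher genes after quantile normalization and 7 with array weights, when 0.481% and 1.7% of all genes were. With the filters at the 25th and 50th percentile it gave 2 and 3, when 0.568% and 0.662% of the genes kept were higher. Without these alternatives 0.356% of all genes were higher, so the share of all genes rose in these fits too. The causes were not tested. Leaving out single arrays gave 13 to 28 falls and 3 to 3 rises in wild type, 1 to 4 and 3 to 6 in the knockout, 11 to 26 genes higher and 0 to 4 lower in the knockout under HDM, 0 to 1 lower with saline, and 0 to 6 higher and 0 to 1 lower interactions. The share of all genes moved with the array left out and is given above for some of these fits only.

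With a replicate block the counts were 3 rises and 24 falls in wild type, 7 and 3 in the knockout, 0 and 0 between genotypes with saline, 19 and 2 under HDM, and 0 and 0 for the interaction. These counts are not set against the share of all genes in the same fit. The replicate numbers did not pair the samples. The number of arrays, 4 per group, limits the precision: a subunit that did not pass is not shown to be unchanged.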
